A study of Danio rerio with 10 samples.

Results

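The 91 transcripts described here were at or near 0 in zebrafish (Danio rerio, AB strain) embryos through dome and were present in both cell fractions at shield, the early gastrula stage. They were chosen from a table of 16383 transcripts by their level in CPM (a transcript's count over its library's total count, times 1000000). A member had a CPM of 1 or less in all 8 libraries of the 64-cell, 256-cell, 1000-cell and dome stages, and a CPM of 5 or more in both shield libraries. The rule allowed up to 300 members and found 91, which is 0.555% of the table. Because these values chose the members, their rise at shield is a description and carries no test.

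The study separated wild-type embryos freed of their chorions, pooled at each of 5 stages, into a nuclear fraction (the washed pellet of a lysis that leaves nuclei whole) and a cytosolic fraction (the supernatant). Total RNA was sequenced after removal of ribosomal RNA, with 1 library per fraction and stage and therefore no replicates within a stage. Each fraction came from whole embryos, so a cell type of the gastrula is mixed with all others, and fewer cells of a type cannot be told apart from less RNA per cell.

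An early zebrafish embryo runs on RNA laid down in the egg, and its own genome becomes broadly active during the blastula period. At shield the embryo has begun gastrulation. Cells move inward at the margin, the germ layers form, and the thickening on the dorsal side that gives the stage its name acts as the fish counterpart of the amphibian organizer. RNA made by the embryo appears in the nucleus before it reaches the cytosol, and maternal RNA is already in the cytosol. The fractions are therefore described below at the stage where a transcript is first seen. Whether their ratio tells how recently a transcript was made was not tested.

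The table names transcripts by Ensembl transcript ID only. The gene tables used for names matched 0 of the 16383 IDs, so the members are given by ID, without gene, chromosome or function, and lists of gastrula genes could not be compared with them. A transcript is 1 model of a gene, so a member first seen at shield may belong to a gene that was already present earlier through another model. The check of fraction and stage labels against marker genes was not analysed here for the same reason.

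Total counts were 5909037 in the nuclear and 7990172 in the cytosolic shield library, and 7010646 to 14311969 in the 8 earlier libraries. At these depths 3 counts, the smallest number taken as detectable, were worth 0.21 to 0.508 CPM. The cytosolic shield library stood apart in its composition, with a TMM scaling factor (edgeR's correction for a few transcripts taking many of the counts) of 0.715 against 0.996 to 1.10 in the other 9 libraries. Its part in the results below was not tested, so nuclear/cytosolic medians and counts past 2-fold at shield are given with TMM scaling and with library totals.

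Before shield the members left few counts in any library. Of the 728 values that 91 members have in 8 earlier libraries, 652 (89.6%) were 0, and the highest was 12 counts. In all, 47 members (51.6%) had 0 counts in every earlier library, and the other 44 had a median of 9 counts over all 8. Of the 6684 transcripts in the table that met the ceiling before shield, 4391 had 0 counts in all 8 earlier libraries, and 726 of those had a count at shield. At the 64-cell, 256-cell and 1000-cell stages, 5 or 6 members had a count in each library, and the members together held 19 to 35 counts per library.

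Dome differed from these stages within the ceiling that the rule set. At dome, 27 members had a nuclear count and 17 a cytosolic one. The whole table moved the same way. Of all 16383 transcripts, 34.7% were at 0 in the dome nuclear and 40.7% in the dome cytosolic library, against 44.9 to 48.1% in the 6 libraries before. The dome nuclear library was also deeper, with 13285467 counts against 7010646 to 8403209 in the earlier nuclear libraries. The dome cytosolic library was not, with 11590909 counts against 9445461 to 14311969 in the earlier cytosolic libraries. The part of depth was not tested. The members together held 182 counts in the dome nuclear library and 89 in the dome cytosolic library, which is 13.7 and 7.68 CPM summed over members, against 2.17 to 4.42 CPM in the 6 libraries before dome. In all, 33 members had a count at dome, 16 in nuclear RNA alone, 6 in cytosolic RNA alone and 11 in both fractions. For 24 of the 33, dome was the earliest stage with any count. A further 11 members had a count before dome and none at dome.

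At shield the members held 25874 counts in the nuclear library, 0.438% of its total (95% exact binomial interval 0.433 to 0.443%), and 30390 counts in the cytosolic library, 0.38% (0.376 to 0.385%). These intervals cover counting error only. In the nuclear library the members' levels ran from 5.08 to 520 CPM with a median of 20.5 CPM. In the cytosolic library they ran from 5.13 to 662 CPM with a median of 13.4 CPM. The middle 50% of members lay between 10.8 and 48.5 CPM in the nuclear and between 7.26 and 26.7 CPM in the cytosolic library.

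**Figure D1:**
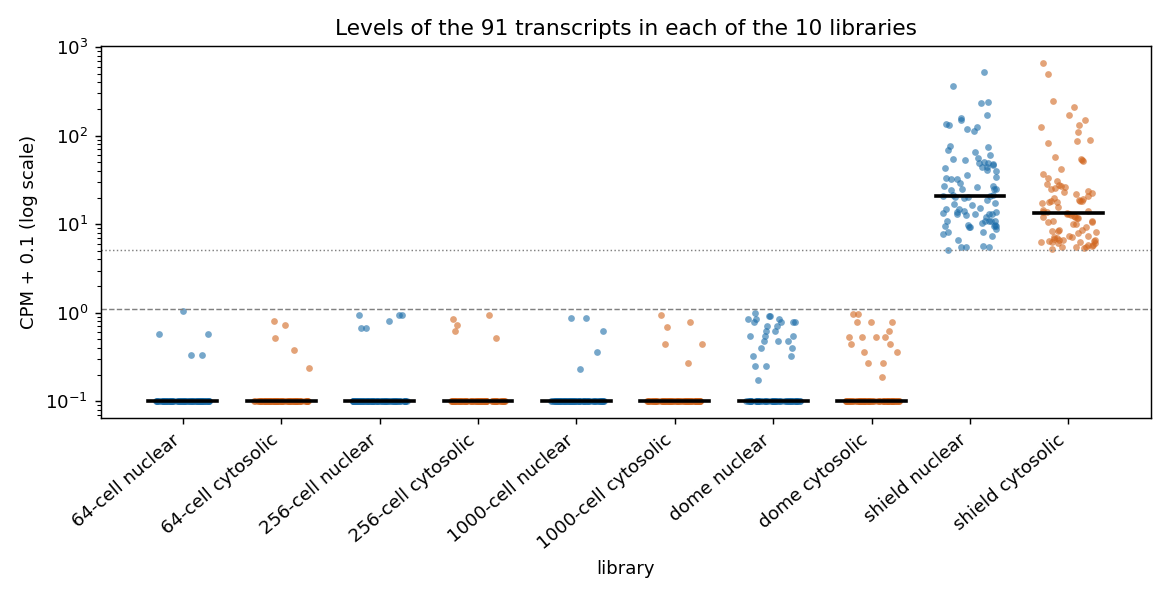
Level of each of the 91 transcripts (points) in the 10 libraries, in CPM + 0.1 on a log axis, with blue for nuclear and orange for cytosolic libraries, a black line at the median, a dashed line at the ceiling of 1 CPM and a dotted line at the floor of 5 CPM. The gap between the lines follows from the rule, and more points lie above 0 at dome (27 nuclear and 17 cytosolic) than at any earlier stage (5 or 6 per library). Over the whole table, too, fewer transcripts were at 0 at dome than before.

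The members were 1.89% of the 4818 transcripts with 5 CPM or more in both shield libraries, and few of them held many counts. The median of the mean shield level was 20.05 CPM for the members and 58.7 CPM for the other 4727 transcripts past the same floor. A mean of 100 CPM or more was reached by 9 members (9.89%) and by 1724 of the others (36.5%). By mean shield CPM, 1 member was among the 500 highest transcripts of the table and 5 were among the 1000 highest. No transcript lengths were in the files, so these are orders of counts, which longer transcripts collect more of, and not of molecules.

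Counts were concentrated in a few members, more so in the cytosolic library. The 10 members with the highest mean shield CPM held 49.0% of the members' nuclear counts and 60.5% of their cytosolic counts. The highest 2 held 17.2% and 30.3%.

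ENSDART00000148891 had the highest mean level at shield, with 3072 counts (519.9 CPM) in the nuclear and 5291 counts (662.2 CPM) in the cytosolic library. It ranked 316 in the table by mean shield CPM. Earlier it had 7 counts in the 1000-cell cytosolic library, 8 in the dome cytosolic library and 0 in the other 6. Its cytosolic level at shield was 959 times that at dome (counting interval 487 to 2220), and its nuclear level was at least 1210-fold higher than the floor of 3 counts in the shallowest earlier nuclear library. The few earlier counts of this transcript were thus all cytosolic.

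ENSDART00000132365 was the next highest and ranked 587 in the table. It had 1380 counts (233.5 CPM) in the nuclear and 3916 counts (490.1 CPM) in the cytosolic shield library. Its earlier counts were 6 in the 256-cell nuclear library and 0 in the other 7, including both dome libraries. The nuclear level at shield was 273 times that at 256-cell (counting interval 125 to 745), and the cytosolic level was at least 1540-fold higher than the floor of the shallowest earlier cytosolic library.

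How the members were divided between the fractions at shield was not set by the rule beyond the floor of 5 CPM in each. The measure was the log2 of nuclear over cytosolic CPM, scaled by TMM, with 2 counts added. The ratio sets a transcript's share of 1 library beside its share of the other and is no count of molecules per compartment. With TMM scaling the members were spread evenly around 0, which library totals shifted toward the nuclear side (values below). Their median with TMM log2 ratio was 0.06, the middle 50% ran from -0.49 to 0.74, and 46 of the 91 lay above 0. A nuclear level at least 2 times the cytosolic one was seen in 13 members (14.3%), the opposite in 13 (14.3%), and 65 were within 2-fold.

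Over the 9568 transcripts that had 10 counts or more in 2 or more libraries, 29.6% were past 2-fold toward the nuclear and 21.1% toward the cytosolic library, 50.7% together. With library totals these shares were 37.2% and 13.5%. That group includes transcripts near 0 in either fraction, which the rule kept out of the members. The closer comparison is with the other 4727 transcripts past 5 CPM in both shield libraries, of which 15.5% were past 2-fold toward the nuclear and 21.9% toward the cytosolic side. With TMM scaling the nuclear share of the members was near this background. The median of the other transcripts was -0.24, so the members' median lay 0.30 higher on the log2 scale. This difference has no test and was small beside the SD over members (1.15) and over the others (1.20).

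The balance between the fractions depended on the scaling. A change of scaling shifts all log2 ratios at shield by nearly the same amount. The distance between the medians of the members and the other transcripts therefore hardly changes by construction. With library totals, the members' median was 0.53, 67 of 91 lay above 0, and 30 (33.0%) were past 2-fold toward the nuclear against 7 (7.69%) toward the cytosolic side. The other transcripts then had a median of 0.24, with 25.7% past 2-fold in the nuclear and 9.96% in the cytosolic direction. The members' nuclear share was thus lower than that of the others with TMM and higher with library totals. The difference between the medians was 0.29 with library totals and 0.30 with the other 3 scalings (TMM, TMMwsp and DESeq2 size factors).

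**Figure D2:**
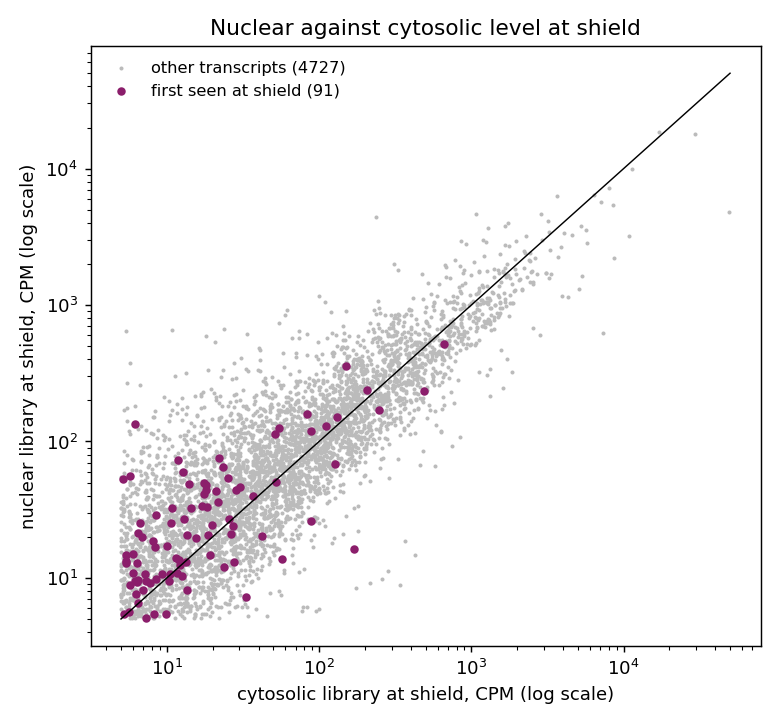
Nuclear against cytosolic level at shield, both in CPM on log axes by library totals, for the 91 members (purple) and the other 4727 transcripts with 5 CPM or more in both libraries (grey). The line marks equal CPM. On its nuclear side lie 67 of the 91 members and 58.8% of the other transcripts (log2 ratio above 0 with library totals). The members are mostly below 100 CPM, with 9 members at a mean of 100 CPM or more.

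Across the 91 members, nuclear and cytosolic log2 CPM correlated at Pearson's r = 0.718 (Spearman's rho 0.611), against 0.832 (0.808) over the other 4727 transcripts. These are descriptions over transcripts that share both libraries, and the members cover a narrower range of levels. The ratio was hardly related to the level over the members, with a rho of 0.11 between mean shield CPM and the log2 ratio.

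The members with more counts spread further. Among the 46 members with a mean shield level of 20 CPM or more, log2 ratios ran from -3.85 to 3.94 with a median of 0.31, and 9 were past 2-fold in each direction. Among the 45 under 20 CPM they ran from -1.44 to 1.42 with a median of -0.19, and 4 were past 2-fold in each direction. With library totals the median was 0.79 at 20 CPM or more, with 20 members past 2-fold in the nuclear and 7 in the cytosolic direction. Under 20 CPM it was 0.28, with 10 and 0. The floor of 5 CPM in both fractions narrows the ratio that a low transcript can have, member or not. The other transcripts were not split by level here, so this spread is not shown to be particular to the members. The 10 highest members had a median of -0.29 with TMM scaling, with 2 of 10 above 0 and 3 past 2-fold in the cytosolic against 0 in the nuclear direction. With library totals their median was 0.19, 6 of 10 lay above 0, and 1 was past 2-fold in each direction.

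Members with and without earlier counts can be set side by side. The 47 with 0 counts in every earlier library had a median mean shield level of 22.1 CPM and a median log2 ratio of 0.15, with 7 past 2-fold in the nuclear and 5 in the cytosolic direction. The 44 with some earlier count had a median level of 19.1 CPM and a median log2 ratio of -0.06, with 6 and 8 past 2-fold. The 33 members with a count at dome had a median log2 ratio of -0.19 at shield, against 0.08 for the 58 without one. These are TMM values, and with library totals the medians of these 4 groups were 0.61, 0.40, 0.28 and 0.55, so both negative ones turned positive. With totals, 16 members were past 2-fold toward the nuclear and 1 toward the cytosolic side among the 47, and 14 and 6 among the 44.

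The members farthest from equal levels were named among those with at least 200 counts over both shield libraries. ENSDART00000150734 had 790 counts (133.7 CPM) in the nuclear and 49 counts (6.13 CPM) in the cytosolic library at shield, and 0 counts in all 8 earlier libraries. Its log2 ratio was 3.94, with a 95% counting interval of 3.55 to 4.41. Against the floor of the shallowest earlier library of the same fraction, its nuclear level was at least 312-fold higher and its cytosolic level at least 19.3-fold higher.

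ENSDART00000139978 had 315 counts (53.31 CPM) in the nuclear and 41 counts (5.13 CPM) in the cytosolic library, a log2 ratio of 2.86 (counting interval 2.43 to 3.40). Earlier it had 6 counts in the dome nuclear library and 0 in the other 7. Its cytosolic level was the closest to the floor of 5 CPM of the cytosolic levels of all members.

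ENSDART00000077352 had 96 counts (16.25 CPM) in the nuclear and 1356 counts (169.7 CPM) in the cytosolic library, and 0 counts in all 8 earlier libraries. Its log2 ratio was -3.85 (counting interval -4.18 to -3.56), the lowest of the members. Its 0 counts before shield, shared by 47 of the 91 members, lie within the rule's ceiling of 1 CPM. They do not tell in which fraction the transcript appeared first.

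ENSDART00000152500 had 43 counts (7.28 CPM) in the nuclear and 264 counts (33.04 CPM) in the cytosolic library, a log2 ratio of -2.63 (counting interval -3.16 to -2.19). Its earlier counts were 6 in the 1000-cell nuclear library and 0 in the other 7. With library totals the log2 ratios of these members were 4.40, 3.33, -3.37 and -2.15 in the order given, so none changed side.

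The difference between the fractions at shield was also tested with edgeR's quasi-likelihood test over all 9568 transcripts. The fit had a block for stage and took the spread from the nuclear/cytosolic differences of the 4 earlier stages, on the assumption that the lone shield pair varies like them (3 residual degrees of freedom). edgeR also draws each transcript's spread toward a trend over all transcripts. For members that give no measure of their own spread (below), it comes from that trend alone. No member passed a Benjamini-Hochberg adjusted p-value of 0.05 (0 of 91), against 12.8% of all transcripts (1223, of which 359 leaned nuclear and 864 cytosolic). With library totals 965 transcripts passed, 561 nuclear and 404 cytosolic, and again 0 members. Unadjusted, 3 members had an edgeR p under 0.05, against 2966 of all 9568 transcripts and 1786 of the other 4727 past the shield floor. DESeq2 with the same design also called 0 members, with 0 under 0.05 unadjusted, and called 2287 of all 9568 transcripts.

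The lowest edgeR adjusted p-value of a member was 0.0986, for ENSDART00000077352, with a log2 fold change of -3.86 (SE 0.507). For ENSDART00000150734 the log2 fold change was 3.97 (SE 0.623, edgeR adjusted p-value 0.119). For ENSDART00000132365 it was -1.55 (SE 0.288, edgeR adjusted p-value 0.142). The rule kept the members' earlier counts at or near 0, so they give little measure of their own spread. The 47 members at 0 in every earlier library give none. Members with counts at only 1 earlier stage also give none, as the fit's terms for stage and fraction match that stage exactly. Among these are the 24 with earlier counts at dome alone, and ENSDART00000132365. For all of these members the 3 residual degrees of freedom do not hold. The contrast of 0 of 91 with 12.8% is thus partly set by the rule and is no result about the members. The SE here is the absolute log2 fold change over the square root of the test's F statistic. Its median was 0.961 over the members, against 0.352 over the other 4727 transcripts, which also had higher levels at shield. Their median of mean shield CPM was 58.7, against 20.05 for the members, and the part of level was not tested. For the members that give no measure of their own spread the degrees of freedom are also fewer. The part of this in the 0 calls was not tested. What size of difference this test could detect for the members was not measured, and 0 calls do not show equal levels.

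Whether transcripts first seen 1 stage earlier were divided differently was described with the same cut-offs. At dome, 46 transcripts had 5 CPM or more in both libraries after 1 CPM or less in the 6 libraries before. At dome itself, with TMM scaling, their median log2 ratio was 0.99, 38 of 46 lay above 0, 22 (47.8%) were past 2-fold toward the nuclear library and 0 toward the cytosolic one. Of the other 5269 transcripts past 5 CPM in both dome libraries, 7.27% were past 2-fold toward the nuclear and 2.41% toward the cytosolic side, with a median of -0.03. Library totals left 22 and 0 of the 46 past 2-fold, with a median of 0.98.

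At the stage where they were first seen, the dome transcripts therefore had a median 1.02 above that of the other transcripts, and the shield transcripts a median 0.30 above (1.02 and 0.29 with library totals). With 1 library per fraction and stage this contrast was not tested. Both sets hold only transcripts past the floor in both fractions. At shield that floor left out 216 transcripts that passed in the nuclear library alone and 26 in the cytosolic library alone. The matching numbers at dome were not counted, and the part of the floor in the contrast was not tested. Of the 46 dome transcripts, 32 were still at 5 CPM or more in both shield libraries. Their median log2 ratio at shield was 0.26, and, with TMM scaling, 13 of 32 (40.6%) were past 2-fold toward the nuclear and 3 toward the cytosolic side. The members had 14.3% in each direction, and the members' median minus that of the 32 was -0.20. With library totals the median of the 32 was 0.74, and the shares past 2-fold toward the nuclear side were 43.8% of the 32 and 33.0% of the members, so the shares lay closer together. These differences were not tested either.

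**Figure D3:**
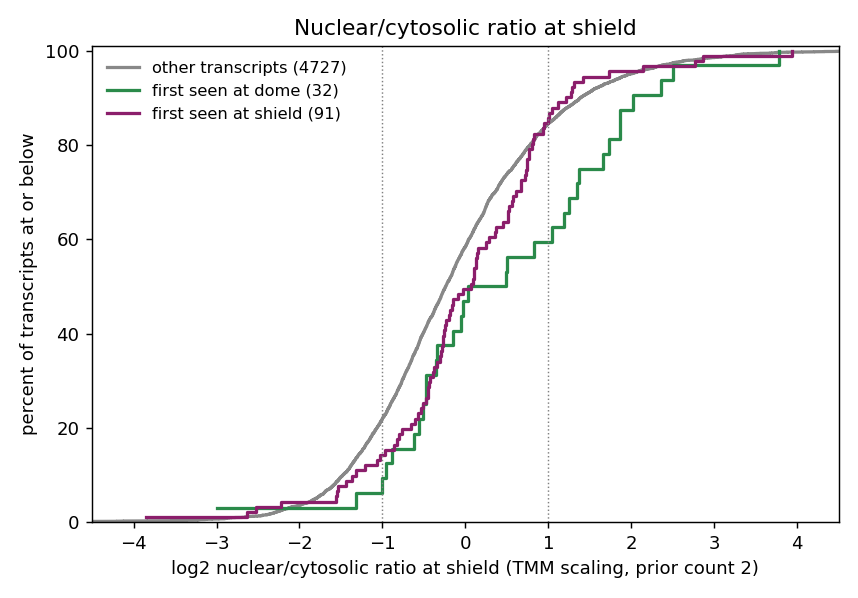
Percent of transcripts at or below each log2 nuclear/cytosolic ratio at shield (TMM scaling, prior count 2) for the 91 members (purple), the 32 transcripts first seen at dome and still past 5 CPM in both fractions (green) and the other 4727 transcripts (grey, which include the 32), with dotted lines at 2-fold. The members' line crosses 50% at 0.06, the green line at 0.26 and the grey line at -0.24.

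**Figure D4:**
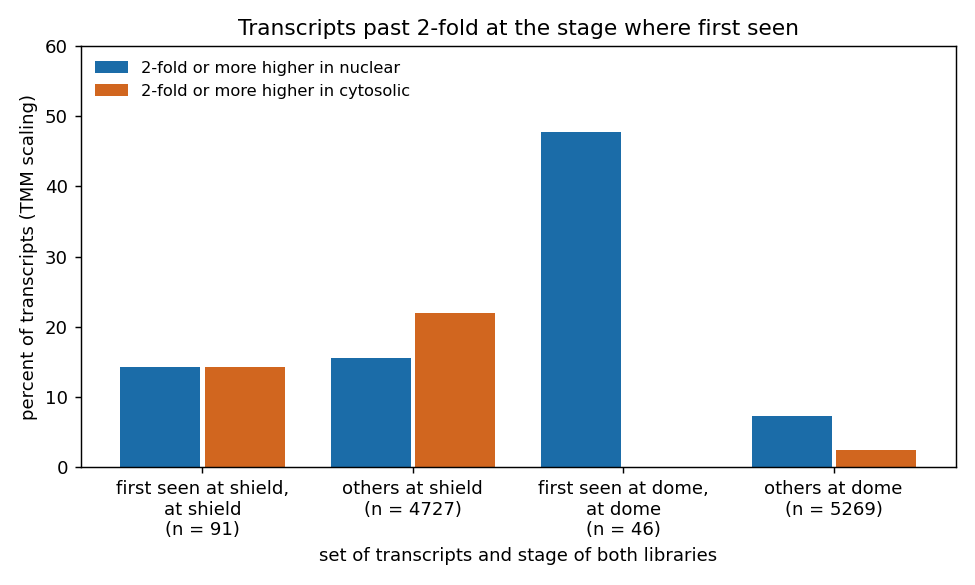
Percent of transcripts past 2-fold toward the nuclear (blue) or cytosolic (orange) library, for transcripts at the stage where they were first seen and for the others past 5 CPM in both libraries of that stage, all with TMM scaling. Both bars are 14.3% for the 91 shield transcripts (33.0% and 7.69% with library totals), against 47.8% and 0% for the 46 dome transcripts under both scalings.

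Requiring both fractions left out many transcripts that met the ceiling before shield. In all, 333 transcripts had 1 CPM or less in the 8 earlier libraries and 5 CPM or more in at least 1 shield library. Of these, 91 passed in both fractions, 216 in the nuclear library alone and 26 in the cytosolic library alone. Of the 216, 75 had 0 counts in the cytosolic library, and of the 26, 15 had 0 counts in the nuclear library. Without the ceiling before shield, 1642 transcripts passed in the nuclear library alone, 409 in the cytosolic library alone and 4818 in both. With TMM-scaled library sizes, 107 transcripts that met the ceiling passed in both fractions, 201 in nuclear RNA alone and 44 in cytosolic RNA alone. The members are thus the smaller share of what was first seen at shield, and the ratios described above cover transcripts past the floor in both fractions.

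Few transcripts met the same cut-offs for any other single stage. With 5 CPM or more in both libraries of a stage and 1 CPM or less in the other 8 libraries, there was 1 transcript at 64-cell, 1 at 256-cell, 1 at 1000-cell and 2 at dome, against 91 at shield. Shield is the last stage sampled, so transcripts that stay present after they appear count there and not at dome.

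Near the cut-offs the members graded into other transcripts. The lower of both shield levels was 5.08 and 5.13 CPM in the members closest to the floor and 4.91 and 4.76 CPM in the transcripts just under it. There were 11 members with a lower shield level from 5 to 6 CPM, and 11 transcripts that met the ceiling with one from 4 to 5 CPM. The highest earlier level was 0.952 CPM among members, and the lowest earlier maximum just over the ceiling was 1.02 CPM. A further 39 transcripts met the shield floor with an earlier maximum over 1 and up to 2 CPM.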

How the data were processed

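The authors deposited raw read counts per transcript model (Ensembl IDs) as 1 table, with a column for each of 10 libraries and 0 per-sample columns left unmatched. With its header the table has 16384 lines, and whether it lists every transcript counted is not given in the sources used here, so a CPM is a share of the counts in this table. Trimmomatic 0.27, STAR 2.6.0a, StringTie and the build Zv9 are named in the submitters' processing notes. The annotation, the counting step and its use of strand are not given in the sources used here, so reads shared by overlapping models or copies may be split in unknown ways.

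The members, lists and tests were chosen with earlier results of these data known. CPM used library totals for the rule. Ratios used TMM scaling and a prior count of 2 (edgeR 4.0.16, R 4.3.3). The test was edgeR's glmQLFit and glmQLFTest on transcripts with 10 counts or more in 2 or more libraries, with Benjamini-Hochberg adjustment. All 91 members passed this filter. The test was also run on simulated counts, whose altered transcripts were drawn without regard to their level before shield. That run is therefore no check of the test for the members. DESeq2 1.42.0 was an alternative. Intervals are 95% Clopper-Pearson intervals or ratios derived from them and cover counting error only. The rule for named transcripts took the 2 with the highest mean shield CPM, and the 2 highest and 2 lowest ratios among members with at least 200 shield counts. Planned gene lists were not used, as no ID could be paired with a name. Python 3.11.15 with SciPy 1.17.1 and pandas 2.3.3 made the other values.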

Additional observations from a re-analysis of the deposited data

How the results depend on the processing

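The number of members was 62 to 130 with a ceiling of 0.5 or 2 CPM, TMM-scaled library sizes (107) or a floor of 3 CPM (127), and 56 with a floor of 10 CPM at shield. The members' median log2 ratio at shield, 0.06 with TMM, was 0.53 with library totals and -0.13 with TMMwsp, so its sign rested on the scaling. Members past 2-fold moved from 13 nuclear and 13 cytosolic to 30 and 7 with library totals. Other prior counts gave 12 or 13 in each direction. Without the 10 transcripts with most counts in any library (28 in all, 0 of them members), the members held 0.492% of the nuclear and 0.468% of the cytosolic counts at shield. The edgeR test and DESeq2 called 0 members under all 9 alternatives (a minimum of 50 counts kept 71 of the 91), while the calls over all transcripts, 1223 in the fit as reported, ran from 67 without the 256-cell stage to 2287 with DESeq2. With any 1 earlier stage left out, 0 members passed, with 67 to 754 transcripts in all. Without the block for stage, which pairs the libraries of a stage, 0 members and 759 transcripts passed. The cause of these differences was not tested. All 9 alternatives kept the members' earlier counts at or near 0, which the rule set, so 0 calls in each are no further support. The depth of the shield libraries limits ratios of members near the floor, and 1 library per fraction and stage limits all of them.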
